A study of Arabidopsis thaliana with 80 samples.

Results

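The CBF cold regulators are 8 Arabidopsis thaliana genes: CBF1 (AT4G25490), CBF2 (AT4G25470), CBF3 (AT4G25480), CBF4 (AT5G51990), DDF1 (AT1G12610), DDF2 (AT1G63030), ZAT12 (AT5G59820) and ICE1 (AT3G26744). They were picked by name for their place in the cold pathway, with earlier results of these data known, from 33602 genes in the deposited table. CBF1, CBF2, CBF3, CBF4, DDF1 and DDF2 encode AP2-domain transcription factors of one family, which bind the CRT/DRE element of cold-regulated (COR) genes. CBF1 to CBF3 are induced early when plants meet low temperature, and their targets make proteins and sugars that protect membranes and cells against freezing. ICE1 is a bHLH transcription factor upstream of CBF3, controlled largely through the stability of its protein. ZAT12 is a zinc-finger factor that answers cold, light, oxidative and wound stress outside the CBF family. The circadian clock sets at which time of day cold can induce the CBF genes, so a level read at 1 time of day carries both temperature and clock.

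The rosettes came from a common garden kept outdoors in southern Spain. The plants were 3 natural accessions of that region, Bon, Moj and Vel, beside Col-0, the standard laboratory strain whose genome is the reference, and none was given a treatment. Leaves were taken between 10:00 and 10:30 and between 15:30 and 16:00, a window that the labels call evening, at collections named ex1 to ex4. The labels give ex1 to ex4 as the extraction, so a collection cannot be told apart from its extraction. They describe vegetative, inductive and reproductive stages but do not tie a collection to a stage, and no air temperature is used here. Each library is a pool of 5 plants, so a p-value here reflects how far such pools differ within 1 garden. The library labelled Moj ex3 morning replicate 1 was left out. The other 79 form 28 groups, 23 of 3 libraries and 5 of 2 (Col-0 and Moj ex1 evening, Moj and Vel ex3 morning, Col-0 ex4 evening), and ex4 holds Col-0 and Vel only.

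CBF2, CBF3 and CBF1 lie next to each other on the minus strand of chromosome 4 in the reference genome TAIR10.1, a later release of the TAIR10 assembly named in the submitters' processing notes. CBF2 spans chr4:13015250-13016235, CBF3 chr4:13018010-13019400 and CBF1 chr4:13021780-13022996, with 1774 bases between CBF2 and CBF3 and 2379 between CBF3 and CBF1. CBF4 lies on chr5:21116877-21117860, DDF1 on chr1:4289883-4291017 and DDF2 on chr1:23367394-23368416. ZAT12 lies on chr5:24102814-24103794 and ICE1 on chr3:9832667-9835279. Each gene except ICE1 has a coding sequence in 1 piece, and that of ICE1 is in 4. The coding sequences of the tandem genes are 86.3% identical between CBF1 and CBF2, 85.0% between CBF1 and CBF3 and 86.7% between CBF2 and CBF3. CBF4 is 68.3% to 68.9% identical to them, and DDF1 and DDF2 are 69.3% identical to each other. The longest stretch without a difference is 68 bases, shared by CBF1 and CBF2, and 29 of the 593 windows of 50 bases in CBF1 occur unchanged in CBF2. None of the 593 occurs in CBF3. The stretch is printed below because a read that falls wholly inside it cannot be given to CBF1 or CBF2, while CBF3 differs from both at 3 bases, in capitals. It starts just before the AP2 domain, in coding bases 112 to 179 of CBF1 and 121 to 188 of CBF2 and CBF3.
CBF1 and CBF2, chr4:13022384-13022451 and chr4:13015899-13015966, minus strand: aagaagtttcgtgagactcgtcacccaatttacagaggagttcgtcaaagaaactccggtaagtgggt
CBF3, chr4:13018816-13018883, minus strand: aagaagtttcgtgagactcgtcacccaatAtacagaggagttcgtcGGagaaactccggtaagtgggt

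The 250 bases before the RefSeq gene start were searched on both strands for 6 short motifs. These were the evening element AAAATATCT, the CCA1-binding site AAAAATCT, the G-box CACGTG, the E-box CANNTG (which covers the G-box), the CAMTA core CGCG and the CRT/DRE core CCGAC. Over the 26711 windows of this length before protein-coding genes in the table, they occur in 2.4%, 6.7%, 6.6%, 55.3%, 10.1% and 11.9%, in that order. The windows of CBF2 and CBF4 are printed because both genes were high in the morning of ex1 and both hold a G-box, the site bound by PIF factors and other bHLH proteins. In capitals are the E-box CACATG, the G-box and the CAMTA core in CBF2, which start 175, 102 and 74 bases before the gene start, and the G-box and the E-box CACTTG in CBF4, at 110 and 85.
CBF2, chr4:13016236-13016485, minus strand: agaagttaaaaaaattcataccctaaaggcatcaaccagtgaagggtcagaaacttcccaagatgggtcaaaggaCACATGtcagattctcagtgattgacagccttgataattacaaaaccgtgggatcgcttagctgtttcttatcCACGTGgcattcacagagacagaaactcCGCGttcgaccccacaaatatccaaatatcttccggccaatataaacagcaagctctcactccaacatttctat
CBF4, chr5:21117861-21118110, minus strand: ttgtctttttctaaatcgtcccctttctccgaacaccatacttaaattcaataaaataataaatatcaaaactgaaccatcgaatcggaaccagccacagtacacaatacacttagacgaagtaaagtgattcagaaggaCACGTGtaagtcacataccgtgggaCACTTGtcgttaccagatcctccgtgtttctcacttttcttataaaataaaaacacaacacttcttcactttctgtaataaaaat
The window of CBF1, which was also high in the morning of ex1, and that of CBF3 hold none of the 6 motifs. Their gene starts lie 434 and 397 bases before the start codon, against 149 in CBF2 and 73 in CBF4, so these windows cover other parts of the promoters and are not compared. ZAT12 holds an evening element and a CAMTA core, ICE1 a CAMTA core, and DDF1 and DDF2 each hold 2 overlapping CAMTA cores, with an E-box in DDF1. A match of letters is a description and does not show that a factor binds there.

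Values are log2 units of a length-normalised expression estimate plus 1, on which a gene that is not detected is listed at 0 and changes of low genes are understated. The table holds no counts, so the depth behind a value is unknown. Between 20428 and 22858 genes were above 0 per library. Of all genes, 20871 reached 1 unit in at least 3 libraries and were tested, among them all 8 members. The leaf markers RBCS1A, LHCB1.1 and RCA were at 3.81 units or above in every library. Of the root markers, PRP3 was at 0 in 73 of 79 libraries, RHD6 in 77 and WOX5 in 49, while PYK10 ran from 0.32 to 5.37. The flower markers AP3, PI, AG and SEP3 were at 0 in 41, 36, 22 and 38 libraries and reached at most 2.95. In bulk rosettes, fewer cells of a type and less RNA per cell cannot be told apart. The library kit does not mark strand, and 29 bases of CBF3 overlap an antisense gene.

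ICE1, CBF3 and ZAT12 were present in all 79 libraries, with lowest values of 3.73, 1.93 and 1.58, whereas CBF1 and CBF4 were abundant in a single cell of the design, the morning of ex1. Per length, the median over all libraries was 4.40 units for CBF3, 4.44 for ZAT12, 4.25 for ICE1, 2.24 for CBF2, 0.82 for CBF1 and 0.08 for CBF4. DDF1 was at 0 in 54 libraries and DDF2 in 53, and CBF4 in 33, while the other 5 genes were above 0 in every library. CBF2 reached the highest value of any member, 8.13 in Col-0 ex1 morning replicate 3, and the same library held the highest values of CBF1 (7.03), CBF3 (6.43) and CBF4 (5.50).

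**Figure D1:**
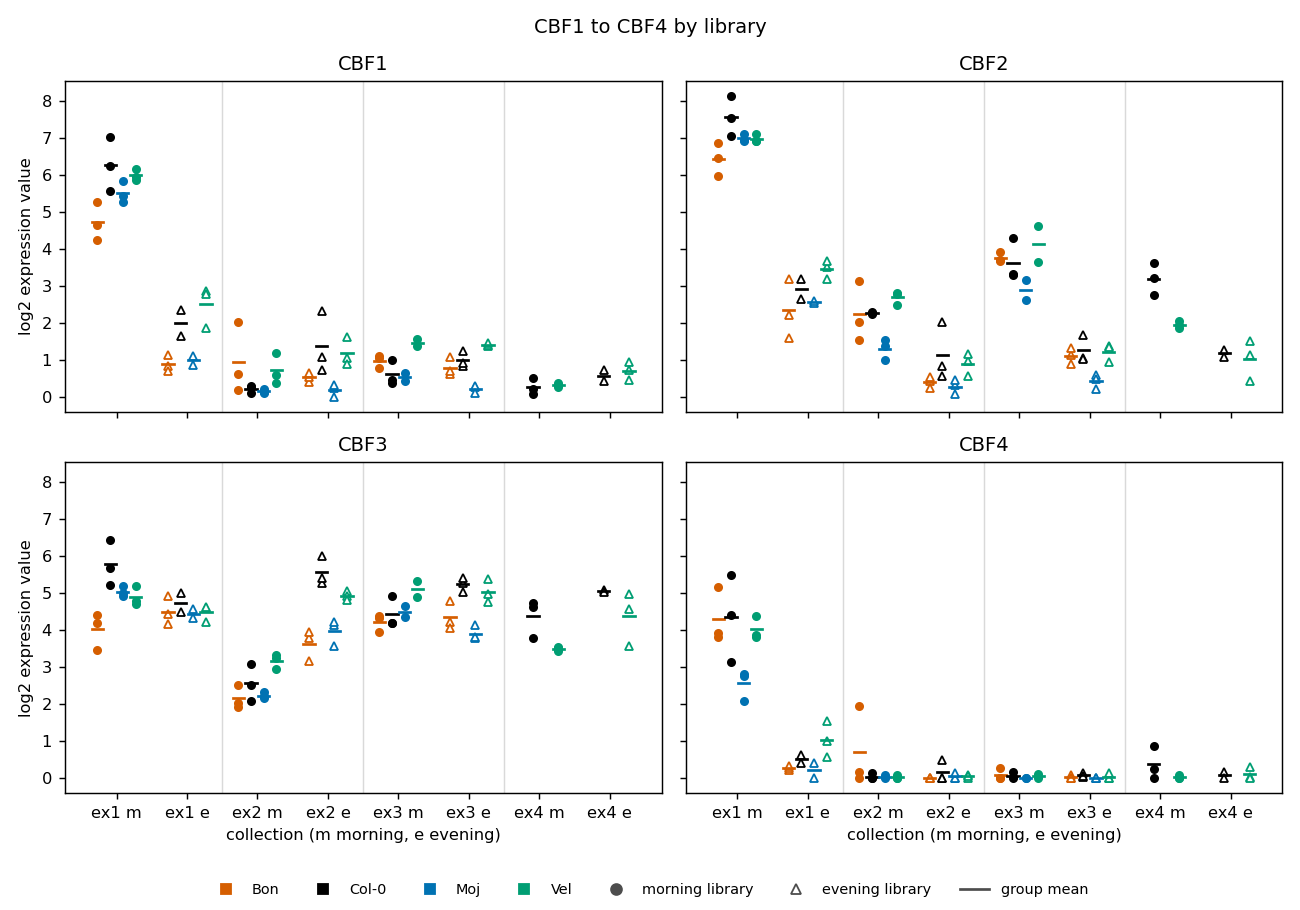
Log2 expression value (vertical axis) of CBF1 to CBF4 in each of 79 libraries, by collection and time (horizontal axis); colours are accessions, filled circles morning, open triangles evening, and bars group means. CBF1 and CBF4 stand high in the morning of ex1 only, CBF2 is higher in the morning in every collection, and CBF3 is lowest in the morning of ex2.

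In the morning of ex1, CBF1, CBF2 and CBF4 were at their highest, and by the evening of that collection each had dropped without overlap between the libraries. The share of all genes tested that showed no overlap was not counted. CBF1 read 4.24, 5.70 and 7.03 (lowest, median and highest of 12 morning libraries) and 0.71, 1.39 and 2.86 in the 10 evening libraries. CBF2 read 5.98, 6.93 and 8.13 in the morning and 1.60, 2.92 and 3.69 in the evening. CBF4, a family member known for its response to drought and abscisic acid rather than cold, read 2.09, 3.85 and 5.50 in the morning and 0.00, 0.42 and 1.55 in the evening. Averaged over the 4 accessions, CBF1 fell by 4.03 (SE 0.16), CBF2 by 4.18 (SE 0.17) and CBF4 by 3.30 (SE 0.17), with limma adjusted p of 5.67e-29, 1.01e-28 and 1.52e-24. These are 16.3-fold, 18.1-fold and 9.83-fold differences on the value-plus-1 scale, and each fell in 4 of 4 accessions. The genes that moved together here include 2 on chromosome 4 and 1 on chromosome 5.

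CBF3, which sits between CBF2 and CBF1 in the tandem, differed little between the times of ex1. It read 3.46, 4.97 and 6.43 in the morning and 4.16, 4.53 and 5.01 in the evening, so the evening libraries lay inside the range of the morning ones. By group means it was lower in the evening in 3 of 4 accessions. In Bon it was higher, at 4.02 in the morning and 4.51 in the evening. Averaged over the 4 accessions, its difference of -0.39 (SE 0.15) passed the threshold at limma adjusted p = 0.0276. The call was lost when any 1 of 7 ex1 libraries was left out (Bon evening replicate 1, Bon morning replicate 3, Col-0 evening replicate 1, Col-0 morning replicate 3, Moj evening replicate 1, Vel evening replicate 3 or Vel morning replicate 3), with adjusted p from 0.0522 to 0.0986. With ZAT12, 5 of 8 members fell and none rose in the evening of ex1. Of all genes tested, 47.8% were called there, 22.1% upward and 25.7% downward. The touch and wound list (TCH2, TCH3, TCH4, JAZ10 and WRKY40), which marks handling and wounding, moved with this comparison. Of its members, 4 of 5 fell, beside 25.7% of all genes. Its summed level, taken back from the log2 scale, ran from 140 to 322 in the morning and from 41.4 to 119 in the evening. Its part in the result was not tested.

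The time-of-day pattern of the tandem genes was another in ex2. CBF2 stayed higher in the morning, with 1.0, 2.25 and 3.13 units against 0.07, 0.55 and 2.04 in the evening (12 libraries each). CBF3 was reversed, with 1.93, 2.42 and 3.33 in the morning against 3.18, 4.53 and 6.02 in the evening. For CBF3, 2 morning libraries, both of Vel, lay above the lowest evening library, which was of Bon. CBF2 fell by 1.44 (SE 0.16, limma adjusted p = 2.10e-11), and CBF3 rose by 2.00 (SE 0.14, limma adjusted p = 1.54e-18), a 3.99-fold difference, in 4 of 4 accessions. CBF1 was low at both times, with medians of 0.29 and 0.69, and its difference of 0.31 (SE 0.15) did not pass, with limma adjusted p = 0.0737. CBF1 did pass at an offset of 0.1 in place of 1, where the difference was 0.76 and limma adjusted p 0.0140. In ex2, 4 of 8 members were called, 2 in each direction, where 66.8% of all genes were.

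In ex3 and ex4, CBF2 kept its morning excess. In ex3 it read 2.63, 3.66 and 4.62 in 10 morning libraries and 0.21, 1.05 and 1.68 in 12 evening libraries, with no overlap, and fell by 2.60 (SE 0.17, limma adjusted p = 1.56e-19). In ex4, with Col-0 and Vel alone, it read 1.86, 2.41 and 3.61 in 6 morning libraries. The 5 evening libraries read 0.42, 1.13 and 1.51, again without overlap, and it fell by 1.47 (SE 0.24, limma adjusted p = 1.05e-06). The libraries of ICE1 did not overlap between the times of ex4 either, and the share of all genes without overlap was not counted. CBF3 read 3.96, 4.37 and 5.33 in the morning of ex3 and 3.78, 4.78 and 5.42 in the evening, a difference of 0.06 (SE 0.15) that did not pass (limma adjusted p = 0.736). In ex4 CBF3 was higher in the evening by 0.78 (SE 0.21, limma adjusted p = 0.00183), with 3.43, 3.67 and 4.75 in the morning and 3.56, 4.98 and 5.09 in the evening. CBF1 was at 1.57 units or below in all libraries of ex3 and ex4 and passed in neither, though at an offset of 0.1 its ex4 difference was 1.07 at limma adjusted p = 0.0287. Of the 8 members, 3 were called in ex3 and 3 in ex4, where 58.6% and 48.9% of all genes were.

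**Figure D2:**
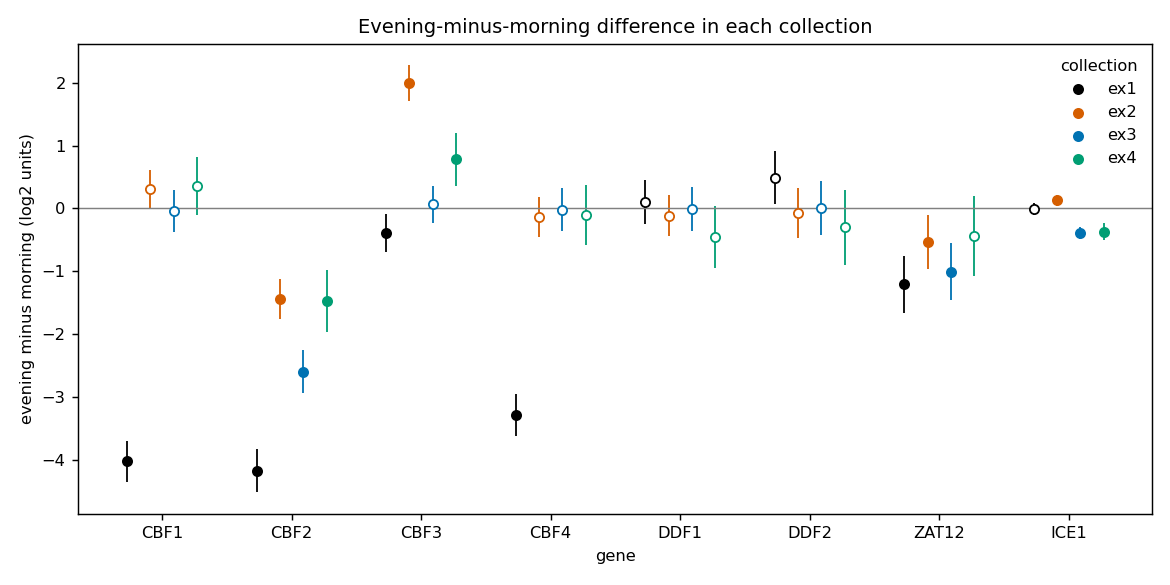
Evening-minus-morning difference in log2 units (vertical axis) of each member (horizontal axis) in ex1 to ex4, averaged over the accessions of the collection; bars span 2 standard errors on each side and filled points passed limma adjusted p under 0.05. CBF1, CBF2 and CBF4 lie between -3.30 and -4.18 in ex1, and CBF3 reaches 2.00 in ex2.

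The change of the evening-minus-morning difference between collections was tested directly. From ex1 to ex2 it moved upward by 4.34 for CBF1, 2.74 for CBF2, 2.39 for CBF3 and 3.16 for CBF4 (SE 0.21 to 0.24). All 4 passed, with limma adjusted p from 1.12e-23 to 7.36e-15, and 59.0% of all genes did. The differences of DDF1 (-0.21), DDF2 (-0.56), ZAT12 (0.67) and ICE1 (0.14) did not pass. From ex2 to ex3 CBF2 moved by -1.16 (SE 0.24), CBF3 by -1.93 (SE 0.21) and ICE1 by -0.52 (SE 0.07), with limma adjusted p of 9.82e-05, 1.44e-10 and 1.39e-08. These 3 of 8 members stand beside 36.3% of all genes. From ex3 to ex4, in Col-0 and Vel, CBF2 alone passed among the members, by 1.17 (SE 0.34, limma adjusted p = 0.0201), where 9.94% of all genes did. That call was lost without Col-0 ex3 morning replicate 2, Col-0 ex4 evening replicate 2 or Vel ex3 morning replicate 2, with values of 0.92 to 1.12 and limma adjusted p of 0.0526 to 0.108. Successive comparisons share the libraries of the collection between them.

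Within single accessions, CBF2 was lower in the evening in all 14 pairs of an accession and a collection. In ex1 the differences were -4.10 in Bon, -4.66 in Col-0, -4.44 in Moj and -3.52 in Vel, and after ex1 they lay between -2.91 (Vel ex3) and -0.93 (Vel ex4). The difference of Col-0 in ex2 was -1.12, and without Col-0 ex2 evening replicate 2 it was -0.84 and did not pass (limma adjusted p = 0.0534). That of Vel in ex4 was lost without Vel ex4 morning replicate 1 or Vel ex4 evening replicate 1 (limma adjusted p of 0.0594 and 0.169), and at an offset of 4 the differences of Moj in ex2 and Vel in ex4 did not pass. The rise of CBF3 in the evening of ex2 was 2.99 in Col-0, 1.48 in Bon, 1.75 in Moj and 1.76 in Vel. Col-0 also differed for CBF3 in ex1, by -1.03, and in ex3, by 0.80, calls lost without Col-0 evening replicate 1 or morning replicate 3 in ex1, and without evening replicate 2 or 3 or morning replicate 1 or 3 in ex3 (limma adjusted p of up to 0.183). CBF1 rose in the evening of ex2 in Col-0, by 1.15 (limma adjusted p = 0.00178), but without Col-0 ex2 evening replicate 3 by 0.67, which did not pass (limma adjusted p = 0.0871). CBF4 fell in the evening of ex1 in each accession, with differences of -4.03 in Bon, -3.83 in Col-0, -2.35 in Moj and -2.98 in Vel. In ex1 the members called were 4 of 8 in Bon, 5 in Col-0, 3 in Moj and 4 in Vel, beside 24.3%, 29.0%, 20.5% and 24.8% of all genes. In ex2 they were 3, 4, 2 and 2, beside 47.8%, 45.3%, 45.6% and 41.2%. In ex3 they were 2, 3, 3 and 2, beside 41.6%, 31.9%, 31.0% and 30.4%, and in ex4 2 in Col-0 and 3 in Vel, beside 32.8% and 39.1%.

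Within single libraries the balance of CBF3 and CBF2 turned over between the times of ex1. CBF3 minus CBF2, a difference of log2 values, was below 0 in all 12 ex1 morning libraries, at -2.52, -1.96 and -1.70 (lowest, median and highest). It was above 0 in all 10 ex1 evening libraries, at 0.94, 1.80 and 2.56. In the morning of ex2 CBF3 was the higher in 9 of 12 libraries, at -0.62, 0.47 and 1.33. CBF3 was the higher in all 12 evening libraries of ex2, all 22 libraries of ex3 and all 11 of ex4, with medians of 3.82 in ex2 evening, 0.80 and 3.58 in ex3 morning and evening, and 1.44 and 3.47 in ex4.

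**Figure D3:**
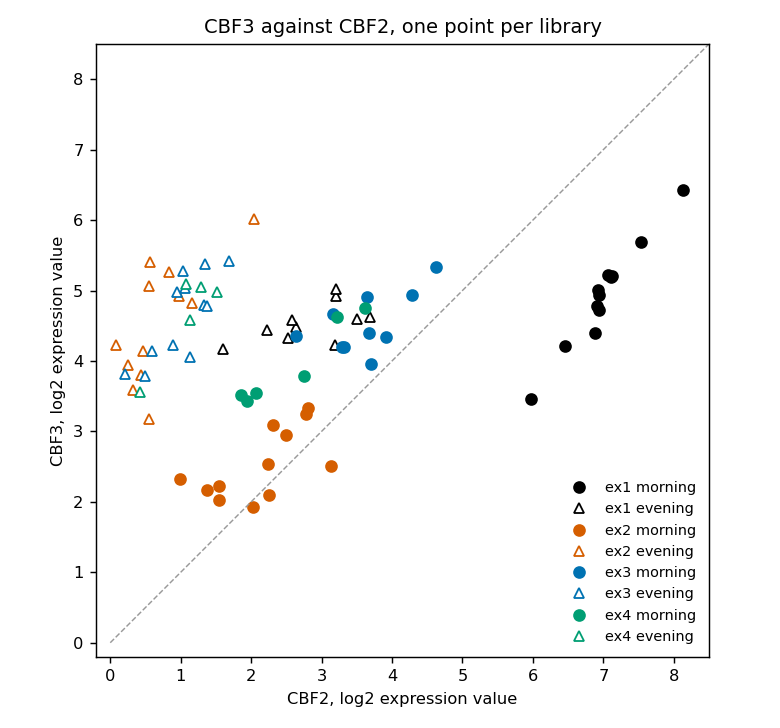
CBF3 (vertical axis) against CBF2 (horizontal axis), both log2 expression values, 1 point per library; colours are collections, filled circles morning, open triangles evening, and the dashed line marks equal values. The 12 ex1 morning libraries lie below the line, and evening libraries lie above it in every collection.

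From ex1 to ex2, morning levels fell in 6 of 8 members, CBF1 by 5.11 (SE 0.15), CBF2 by 4.87 (SE 0.16), CBF4 fell by 3.60 (SE 0.16) and CBF3 by 2.40 (SE 0.14), beside ZAT12 and ICE1. The limma adjusted p of these 6 ran from 4.31e-35 to 3.56e-05, and 80.4% of all genes were called, 41.8% downward. In the evening 5 of 8 fell, where 74.7% of all genes were called: CBF2 by 2.13, CBF1 by 0.78, DDF2 by 0.76, ICE1 by 0.67 and CBF4 by 0.45 (SE 0.05 to 0.21), at limma adjusted p up to 0.0143. The evening fall of CBF4 did not pass at an offset of 4, where it was -0.14 and limma adjusted p 0.257. For DDF2, the evening means of ex1 and ex2 were 1.84 and 0.02 in Vel and 0.97 and 0.00 in Bon. They were 0.27 and 0.08 in Moj and 0.05 and 0.00 in Col-0, so a few pools of Vel and Bon carried its fall. CBF3 was level between the evenings of ex1 and ex2, with medians of 4.53 in both and a difference of -0.02 (SE 0.15).

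From ex2 to ex3 morning CBF3 rose by 2.04 (SE 0.15, limma adjusted p = 1.43e-16) and CBF2 by 1.48 (SE 0.17, limma adjusted p = 3.00e-10). ICE1 rose by 0.21 and CBF1 by 0.38, so 4 of 8 were called beside 52.5% of all genes. The CBF1 call, at limma adjusted p = 0.0444, was lost when any of 14 libraries was left out, with values of 0.29 to 0.41 and limma adjusted p of 0.0520 to 0.127. In the evening the members called were ZAT12, which fell by 0.74 (SE 0.21), and ICE1, which fell by 0.31 (SE 0.05), 2 of 8 beside 43.4%. From ex3 to ex4 morning, in Col-0 and Vel, CBF2 fell by 1.31, CBF3 by 0.84, CBF1 by 0.75 and ICE1 by 0.24 (limma adjusted p of 2.16e-05 to 0.00869), 4 of 8 beside 38.0% of all genes. At an offset of 4 the fall of CBF1 was -0.28 and did not pass, with limma adjusted p of 0.122. In the evening 1 of 8 was called beside 49.1%, CBF1, which fell by 0.56 at limma adjusted p = 0.0400. It was lost when any of 8 libraries was left out, with limma adjusted p of up to 0.142.

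CBF4 was close to 0 after ex1. In ex2, ex3 and ex4 its highest library was 1.95, in Bon ex2 morning replicate 3, and the next was 0.87, in Col-0 ex4 morning replicate 2. Its libraries at 0 numbered 1 of 22 in ex1 and 32 of the 57 later ones. Its differences between times after ex1, from -0.14 to -0.02, did not pass.

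DDF1 and DDF2, which in Arabidopsis are known for dwarfing and delayed flowering when overexpressed and for a response to salt, were at or near 0 in most libraries and rose above 1 in few. DDF1 exceeded 1 in Vel ex1 evening replicate 1 (2.14), Bon ex2 morning replicate 3 (1.19) and Col-0 ex4 morning replicate 2 (2.69). DDF2 was high in the same 3 libraries, at 3.77, 1.04 and 1.78, and also in Bon ex1 evening replicate 3 (2.50) and Vel ex1 evening replicate 2 (1.48). The other libraries of these groups were between 0.00 and 0.65, so single pools carried the values. No difference of DDF1 between times or collections, averaged over accessions, passed. Against Col-0, DDF1 of Vel was lower in the morning of ex4, at -0.88 (limma adjusted p = 0.0260). The Col-0 pools there read 0.00, 2.69 and 0.00, so a single pool carried this call. In Vel, DDF2 was higher in the evening of ex1 than in the morning, by 1.43 (limma adjusted p = 0.00494), with 3.77, 1.48 and 0.27 against 0.69, 0.40 and 0.15. Without Vel ex1 evening replicate 1 this difference was 0.46 at limma adjusted p = 0.399, and without replicate 3 it was 2.21. Fitted on ex1 alone it did not pass either, with limma adjusted p of 0.106. Averaged over the accessions, the difference of DDF2 in ex1 was 0.49 at limma adjusted p = 0.0523. Against Col-0 in the evening of ex1, DDF2 of Vel was higher by 1.79 (limma adjusted p = 0.00133). Without Vel ex1 evening replicate 1 that difference was 0.82 and did not pass (limma adjusted p = 0.0936).

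**Figure D4:**
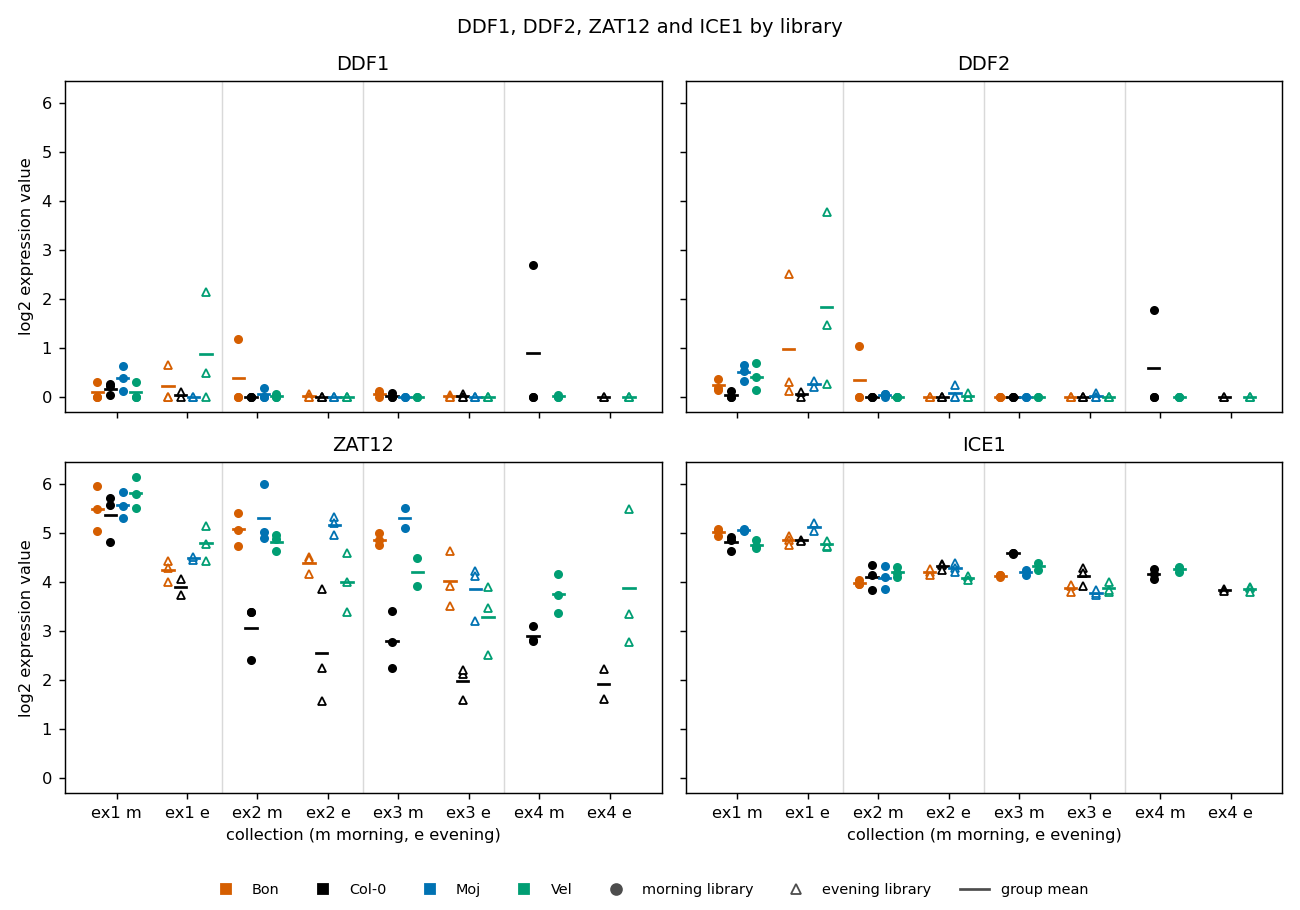
Log2 expression value (vertical axis) of DDF1, DDF2, ZAT12 and ICE1 in each of 79 libraries by collection and time (horizontal axis), with symbols and bars as for CBF1 to CBF4. DDF1 and DDF2 exceed 1 in 3 and 5 libraries, ZAT12 of Col-0 lies lowest from ex2 on, and ICE1 stays between 3.73 and 5.21.

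ICE1 moved within a narrow band, and the spread between its libraries was small enough for small differences to pass. Over 79 libraries it ran from 3.73 to 5.21. It was highest in ex1, at 4.64 to 5.08 in the morning and 4.72 to 5.21 in the evening, above each later library, the highest of which was 4.60. From ex1 to ex2 it fell by 0.81 (SE 0.05) in the morning. Evening and morning did not differ beyond the spread in ex1 (-0.01, SE 0.05), while ICE1 was lower in the evening by 0.39 in ex3 and 0.37 in ex4, with limma adjusted p of 6.06e-10 and 9.59e-06. In ex2 it rose by 0.13 (limma adjusted p = 0.0120), which without Col-0 ex2 morning replicate 3 was 0.09 at limma adjusted p = 0.0543. Averaged over the accessions, its largest time-of-day difference, in ex3, was 1.31-fold, against 6.05-fold for CBF2 in the same libraries.

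ZAT12 was lower in the evening than in the morning, by 1.20 in ex1 (SE 0.23, limma adjusted p = 1.09e-05) and 1.01 in ex3 (SE 0.23, limma adjusted p = 1.30e-04). Its libraries overlapped between the times in each collection, with 4.81, 5.56 and 6.14 in the morning of ex1 and 3.75, 4.43 and 5.15 in the evening. In ex2 the fall of 0.54 passed at limma adjusted p = 0.0236 but not without Col-0 ex2 evening replicate 2, Moj ex2 morning replicate 3 or Vel ex2 evening replicate 2 (-0.46 to -0.42, limma adjusted p of 0.0581 to 0.0788). In ex4 it was -0.44 at limma adjusted p = 0.265. Without Vel ex4 evening replicate 1, which stood at 5.49 against 2.78 and 3.36 in the other pools of that group, it was -0.84 at limma adjusted p = 0.0153.

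Against Col-0, on average over ex1 to ex3, the natural accessions held more ZAT12, and Bon and Moj held less of CBF1, CBF2 and CBF3. The 3 comparisons share the Col-0 libraries. Reads of all accessions were aligned to TAIR10, the genome of Col-0. Whether sequence differences of the natural accessions change the values given to their genes was not tested. Averaged over ex1 to ex3 and both times, ZAT12 was higher by 1.40 in Bon (SE 0.18), 1.67 in Moj (SE 0.19) and 1.20 in Vel (SE 0.18), with limma adjusted p of 6.99e-10, 1.27e-11 and 6.67e-08. For CBF3, Bon lay lower by 0.91 and Moj by 0.70 (SE 0.12 in both, limma adjusted p of 1.43e-09 and 1.34e-06). In Vel it differed by -0.12 (SE 0.12) and did not pass. For CBF2 the differences were -0.42 (Bon) and -0.72 (Moj), and for CBF1 -0.43 and -0.64. At an offset of 0.1 the CBF1 difference in Bon was -0.46 at limma adjusted p = 0.0746. CBF4 was lower in Moj by 0.40. ICE1 was lower by 0.12 in Bon and 0.13 in Vel. CBF1 was higher in Vel by 0.30 at limma adjusted p = 0.0415, a call lost when any of 16 libraries was left out, with limma adjusted p of up to 0.124. The members called were 5 of 8 in Bon, 5 in Moj and 3 in Vel, beside 66.5%, 68.7% and 64.6% of all genes, so these shares lie near or under the background. DDF1 and DDF2 passed in none of the 3. Within the morning of ex2 CBF1 went the other way in Bon, which was higher than Col-0 by 0.73 (limma adjusted p = 0.0496). This call was lost when any of 59 libraries was left out, and without Bon ex2 morning replicate 3 the difference was 0.18 (limma adjusted p = 0.671).

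The size of these differences changed with the collection for some members. An F test of accession by collection over ex1 to ex3 gave limma adjusted p of 6.18e-06 for ICE1, 5.89e-04 for ZAT12, 8.84e-04 for CBF1, 0.0129 for CBF3 and 0.0183 for CBF4, 5 of 8 members beside 72.9% of all genes. The CBF4 call was lost without Moj ex1 evening replicate 1 (limma adjusted p = 0.0990) or Moj ex1 morning replicate 3 (limma adjusted p = 0.0600), and at an offset of 0.1 (limma adjusted p = 0.174). An F test of accession by time of day used the evening-minus-morning difference averaged over ex1 to ex3. It called 0 of 8 members beside 28.1% of all genes. Without adjustment 3 of 8 (CBF1, CBF3 and CBF4) had p under 0.05, and their limma adjusted p was 0.0855, 0.0732 and 0.0692. Opposite accession differences in different collections can cancel in that average. The mean of CBF3 in ex1 went from 4.02 in the morning to 4.51 in the evening in Bon, and from 5.78 to 4.75 in Col-0. In ex2 its evening rise was 1.48 in Bon and 2.99 in Col-0.

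Within a collection and time, the members called against Col-0 in the morning of ex1 were 3 of 8 in Bon, 2 in Moj and 1 in Vel, beside 28.5%, 23.3% and 20.7% of all genes. In the evening of ex1 they were 1, 2 and 1, beside 33.3%, 35.0% and 33.0%. In ex2 they were 2, 2 and 1 in the morning, beside 45.5%, 43.6% and 46.3%, and 3, 4 and 2 in the evening, beside 44.0%, 41.0% and 31.2%. In ex3 they were 2, 2 and 3 in the morning, beside 57.4%, 52.9% and 39.6%, and 3, 5 and 2 in the evening, beside 47.1%, 48.8% and 34.3%. Vel in ex4 had 3 in the morning and 1 in the evening, beside 43.0% and 35.6%. Moj in the evening of ex3 had the most, with CBF1, CBF2, CBF3 and ICE1 lower and ZAT12 higher, and those of CBF1 and CBF2 (-0.77 and -0.83) did not pass at an offset of 4 and were lost without 1 library, for CBF1 Col-0 replicate 2 or 3 or any Moj replicate, for CBF2 Col-0 replicate 3 or Moj replicate 2 or 3 (limma adjusted p of up to 0.124 and 0.160).

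The dependence on collection was clear in the levels of ZAT12. In ex1 its 5 Col-0 libraries read 3.75 to 5.72 and the 17 of Bon, Moj and Vel read 4.01 to 6.14, and none of 6 comparisons within a time of day passed (0.13 to 0.88). In ex2 Col-0 read 1.58 to 3.86 against 3.38 to 6.01, and in ex3 1.60 to 3.40 against 2.51 to 5.51. All 12 comparisons of ex2 and ex3 passed, from 1.32 in the evening of ex3 for Vel to 2.60 in the evening of ex2 for Moj. For Vel in the evening of ex2, the difference of 1.43 was 0.94 without Col-0 replicate 2 and 1.13 without Vel replicate 3, and neither passed (limma adjusted p of 0.137 and 0.0739). In the morning of ex3 it was lost without Col-0 replicate 3 (1.12) or Vel replicate 1 (1.11), and in the evening of ex3 without Col-0 replicate 1 (1.13) or Vel replicate 2 (1.02), with limma adjusted p of 0.0725 to 0.175. In ex4, with Vel alone, the difference was 1.95 in the evening (limma adjusted p = 9.20e-04) and 0.85 in the morning, which did not pass. Without Vel ex4 evening replicate 1 the evening value was 1.15 at limma adjusted p = 0.0520. The touch and wound list moved the same way. Against Col-0, 4 of its 5 members were higher in Bon and in Moj and 3 in Vel, beside 32.9%, 33.0% and 32.2% of all genes, with WRKY40 at 0.74, 1.79 and 1.09. Its summed level in ex1 was 41.4 to 322 in Col-0, 60.5 to 225 in Bon, 80.1 to 259 in Moj and 67.4 to 267 in Vel. In ex2 it was 48.5 to 156, 99.5 to 299, 139 to 349 and 86.4 to 245. In ex3 it was 35.8 to 54.6 in Col-0, 60.8 to 207 in Bon, 83.3 to 374 in Moj and 71.4 to 206 in Vel. Its part in the ZAT12 result was not tested.

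CBF3 in the evening of ex2 read 5.27, 5.40 and 6.02 in the pools of Col-0. It read 3.79, 3.95 and 3.18 in Bon, 3.58, 4.14 and 4.23 in Moj and 5.06, 4.92 and 4.83 in Vel. All 9 pools of the natural accessions lay below the 3 of Col-0, and Vel lay between Col-0 and the other 2. Bon differed by -1.92 (SE 0.28, limma adjusted p = 1.25e-07) and Moj by -1.58 (SE 0.28, limma adjusted p = 7.32e-06). For Vel the difference was -0.62 and did not pass (limma adjusted p = 0.0889). In the evening of ex3 Moj was the lowest, with -0.89 in Bon, -1.33 in Moj and -0.20 in Vel. Of these, Moj and Bon passed, and the call for Bon was lost without Bon ex3 evening replicate 2, at -0.74 and limma adjusted p = 0.0575. In the mornings of ex2 and ex3 none of the 3 accessions passed for CBF3, and Vel differed by 0.60 and 0.67. In the morning of ex1 Vel was lower, at -0.88 (limma adjusted p = 0.0197), a call lost when any of 3 libraries was left out. In the morning of ex4 Vel was lower, at -0.89 (limma adjusted p = 0.00876), a call lost without 1 library.

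In the morning of ex1, where CBF1 and CBF2 were highest in each accession, Bon had the lowest means of the tandem genes. CBF3 was not at its highest there in Bon, with a mean of 4.02 against 4.51 in the evening of ex1. Nor was it in Vel, with 4.91 against 5.12 in the morning of ex3. CBF1 read 4.24, 4.65 and 5.28 in Bon and 6.23, 5.57 and 7.03 in Col-0, a difference of -1.55 (SE 0.31, limma adjusted p = 6.79e-05). CBF3 read 3.46, 4.21 and 4.40 in Bon and 5.69, 5.23 and 6.43 in Col-0, a difference of -1.76 (SE 0.28, limma adjusted p = 1.40e-06). CBF4 did not follow, with 3.83, 3.92 and 5.18 in Bon against 4.41, 3.15 and 5.50 in Col-0. For CBF4 the low accession was Moj, at 2.83, 2.77 and 2.09, below all Col-0 pools and 1.79 lower on average (SE 0.32, limma adjusted p = 1.04e-05).

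ICE1 was below Col-0 in each natural accession in ex3. In the morning its values were 0.46 lower in Bon, 0.39 in Moj and 0.26 in Vel, and in the evening 0.24, 0.35 and 0.25. All 6 passed, with limma adjusted p from 2.27e-05 to 0.0361. The Vel call in the morning was lost without any Col-0 replicate or Vel replicate 1, and in the evening without Col-0 or Vel replicate 1 or 2 (limma adjusted p of up to 0.287). The Bon call in the evening was lost without Bon replicate 2 or Col-0 replicate 1 or 2, and was -0.16 without Col-0 ex3 evening replicate 1 (limma adjusted p = 0.195). In ex1 Moj held more ICE1 than Col-0, by 0.25 in the morning and 0.28 in the evening, and both calls were lost without 1 library, in the morning Col-0 replicate 3 or any Moj replicate and in the evening Col-0 replicate 1 or 3 or Moj replicate 1 (limma adjusted p of up to 0.307).

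**Figure D5:**
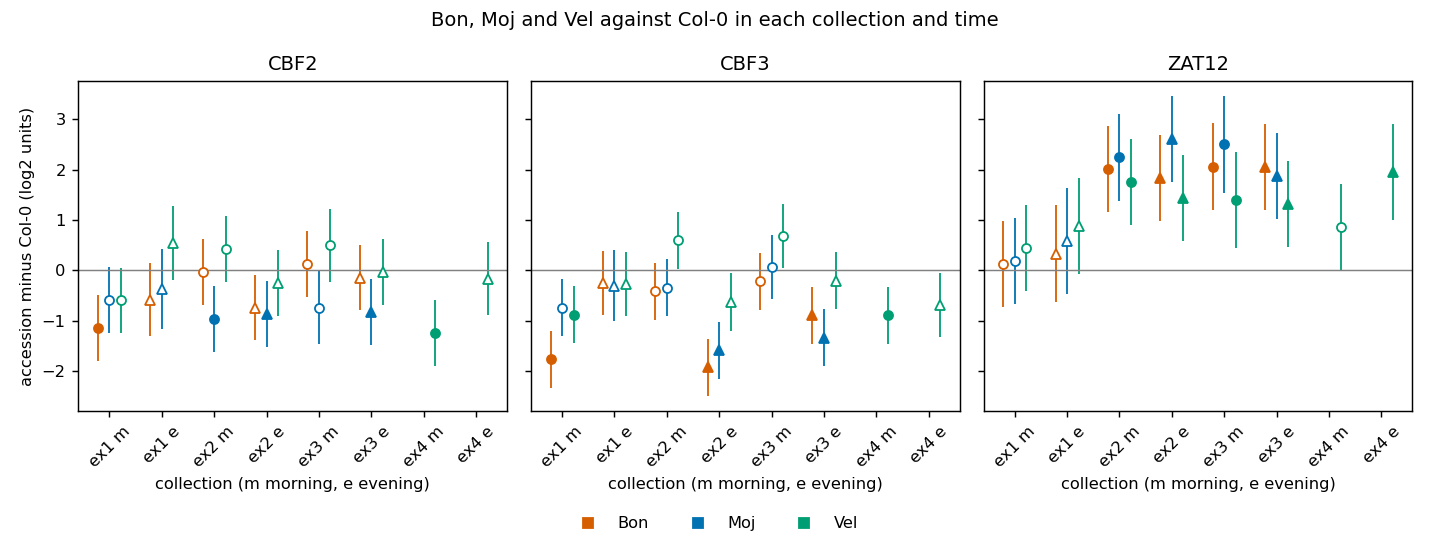
Difference from Col-0 in log2 units (vertical axis) of CBF2, CBF3 and ZAT12 in Bon, Moj and Vel, by collection and time (horizontal axis); circles are morning, triangles evening, bars span 2 standard errors on each side, and filled symbols passed limma adjusted p under 0.05. ZAT12 is higher than in Col-0 in all 12 comparisons of ex2 and ex3, and CBF3 of Bon and Moj is lower in the evenings of ex2 and ex3.

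Genes known to act on the CBF genes were examined as lists. Among 8 clock genes, CCA1 and LHY, morning factors that bind the CBF promoters, were lower in the evening of ex1, with differences of -0.96 and -0.49, and in the evening of ex2, with -6.21 and -6.85. PRR5, PRR9 and TOC1, pseudo-response regulators that repress clock genes, rose in the evening of ex1 by 3.06, 1.48 and 1.06. PRR9 fell in the evening of ex2, by 3.21. The list gave 4 rises and 4 falls in ex1 and 2 and 5 in each of ex2, ex3 and ex4, beside 47.8%, 66.8%, 58.6% and 48.9% of all genes called in the 4 collections. Its medians were of 0.31, -2.51, -3.02 and -2.02, beside a median over all genes of -0.03 in ex1 and close to 0 in the others. RVE8, an activator of evening genes, fell in the evening of ex2, ex3 and ex4 with differences of -4.01, -3.67 and -2.90. In ex3 and ex4 CCA1 was at -6.22 and -4.52, and LHY at -6.73 and -6.76. Clock and target genes named here beyond the 3 largest changes of a list were singled out after their values were seen.

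Of 20 input regulators, which act on the CBF genes or on the ICE1 and CBF proteins, 8 rose and 7 fell in the evening of ex1, where 22.1% of all genes rose and 25.7% fell. PIF4 and PIF7, bHLH factors that repress the CBF genes, rose by 2.59 and 1.20, and MPK3, a kinase that marks ICE1 for breakdown, fell by 1.29. In ex2, where 33.7% of all genes rose and 33.1% fell, 5 rose and 10 fell, among them PIF7 (-2.21), CRPK1 (-0.41), a kinase upstream of CBF protein breakdown, and MYB15 (-0.43), a repressor of the CBF genes. From ex1 to ex2 morning 15 rose and 4 fell, beside 38.6% and 41.8% of all genes, with CRPK1 at 1.90, PIF4 at 1.96 and ICE2, the paralog of ICE1, at -1.49. The list medians were -0.05 for ex1, -0.14 for ex2 and 0.58 for ex1 to ex2 morning, where the median over all genes was -0.02.

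The 14 parallel early factors, transcription factors that answer cold alongside the CBF genes, gave 5 rises and 6 falls in the evening of ex1, 2 and 8 in ex2, 2 and 9 in ex3 and 0 and 10 in ex4. Of all genes, 47.8%, 66.8%, 58.6% and 48.9% were called in the 4 collections, and 25.7%, 33.1%, 28.7% and 23.9% fell. In ex1 HSFC1 fell by 2.81, WRKY33 by 2.14 and ZAT10, a zinc-finger relative of ZAT12, by 2.12. In ex2 the largest falls were of WRKY22 (-1.49), MYB44 (-1.46) and RVE2 (-1.13), in ex3 of ZAT10 (-1.34), RVE2 (-1.33) and WRKY33 (-1.21), and in ex4 of RAV1 (-1.96), RVE2 (-1.85) and ERF5 (-1.82). HSFC1, a heat-shock-factor family member, also fell most from ex1 to ex2 morning, by 3.73, where the list gave 3 rises and 5 falls beside 80.4% of all genes called, and RVE2 and ZAT10 fell by 2.34 and 1.40. The medians of the 4 collections were -0.24, -0.53, -0.64 and -0.72.

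Of 14 CBF target genes, 12 rose and none fell in the evening of ex1, while CBF1, CBF2 and CBF4 fell. Of all genes, 22.1% rose and 25.7% fell in ex1, 33.7% and 33.1% in ex2, 29.9% and 28.7% in ex3 and 25.0% and 23.9% in ex4. RD29A rose by 2.23, LTI30, a dehydrin, by 2.01 and GOLS3, which makes the precursor of raffinose sugars, by 1.88. In ex2, 9 rose, led by COR15A (2.64), a protein that protects chloroplast membranes, RD29A (2.24) and COR15B (1.74), and 2 fell, RAP2.1 (-1.05) and GOLS3 (-0.74). In ex3, 6 rose and 3 fell, with GOLS3 at -2.50, COR15A at 1.89 and RAP2.1 at -1.69. In ex4, 1 rose and 10 fell, with GOLS3 at -4.34, COR15B at -2.46 and RAP2.1, an AP2 factor downstream of the CBF genes, at -1.96. The medians were 0.85, 0.87, 0.12 and -1.07. COR15A and COR15B are close copies, as are KIN1 and COR6.6, so reads may be split between them.

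Between collections the targets fell from ex1 to ex2, 13 of 14 in the morning and 12 in the evening, beside 41.8% and 38.8% of all genes that fell. CBF1, CBF2 and CBF4 fell at both times. CBF3 fell in the morning but was level in the evening, with medians of 4.53 in both collections. COR15A was at -3.61, LTI30 at -3.21 and COR15B at -2.98 in the morning, and LTI30 at -4.50, GOLS3 at -4.19 and KIN1 at -3.20 in the evening. DEAR1, an AP2 repressor, was the 1 target that rose at each time, by 1.02 and 0.70. From ex2 to ex3 morning 13 rose, where 26.5% of all genes rose, and none fell, led by GOLS3 (2.51), RD29A (2.04) and COR413IM1 (1.36), a chloroplast membrane protein. The medians were -1.69 and -1.99 from ex1 to ex2 and 1.16 from ex2 to ex3 morning. Against Col-0, 13 of 14 targets were lower in Bon, 13 in Moj and 10 in Vel, beside 33.6%, 35.7% and 32.3% of all genes, with medians of -1.47, -1.38 and -0.56. GOLS3 was at -3.59 in Bon and -3.05 in Moj, and COR413IM1 was at -2.71 in Bon and -1.15 in Vel. COR15A was at -2.25 in Moj and the dehydrin ERD10 at -1.16 in Vel. KIN1, a small cold-induced protein, was at -2.57, -3.49 and -1.93 in Bon, Moj and Vel. The reads of these accessions were aligned to the genome of Col-0, and the part of sequence differences in these values was not tested. On average over ex1 to ex3, CBF3 of Vel did not pass against Col-0. It was lower in the morning of ex1 and, outside that average, in the morning of ex4, and both calls were lost without single libraries. In the mornings of ex2 and ex3 it differed by 0.60 and 0.67, which did not pass. CBF1 of Vel was higher on that average, a call lost when any of 16 libraries was left out.

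Across the 28 group means, which share 79 libraries and are given as a description, CBF1 was most like CBF4 among the members (Pearson r = 0.95), followed by CBF2 (0.87). CBF1, CBF2 and CBF4 were all highest in the morning of ex1, and CBF1 and CBF4 were low in most other groups. Their correlations, also those with other genes below, lean on that peak and were not computed without it. CBF3 was less like its tandem neighbours, at 0.44 with CBF1 and 0.29 with CBF2. DDF1 and DDF2 stood at 0.81, carried by the few pools named above. Over all other genes tested, the closest to CBF1 were AT5G45630 (0.93), AT5G17350 (0.92) and AT4G29780 (0.89), and to CBF2 PUB19 (0.94), a ubiquitin ligase, AT1G26790 (0.93) and AT5G26200 (0.93). For CBF3 they were ATHM2 (0.87), a chloroplast thioredoxin, AT1G70640 (0.84) and AT1G29390 (0.84), which is the target COR413IM2. For DDF1 they were RRTF1 (0.78), a redox-responsive AP2 factor, AT1G03020 (0.64) and AT3G61571 (0.61). The profile of DDF1 is carried by the same few pools, and the group means of these neighbours reached at most 1.16. ZAT12 was closest to CMPG1 (0.94), a ubiquitin ligase of defence responses, AT5G48540 (0.91) and GGT1 (0.89), and ICE1 to AT5G48220 (0.96), FU (0.95) and AT1G14020 (0.94).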

How the data were processed

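The deposited table holds log2 values per gene and library, which the authors made with FastQC, HISAT2 and StringTie on TAIR10, per the submitters' processing notes, none with a version. That the values are log2 of a length-normalised estimate plus 1, and that the libraries were brought to a common distribution, was read from the values. Polyadenylated RNA was sequenced with a kit that does not mark strand, per the labels' protocols.

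The members and lists were chosen with earlier results of these data known. Groups were taken from the labels. One mean per group was fitted to all 79 libraries with limma 3.58.1 in R 4.3.3 (variance trend, 51 residual degrees of freedom), two-sided, with Benjamini-Hochberg adjustment over the 20871 genes that reached a value of 1 in at least 3 libraries, and adjusted p under 0.05 was called. The pipeline was tested on simulated data. All 8 members are described whatever their result. From each list described, the 3 called genes with the largest difference are named, and the 3 genes closest to a member by correlation of group means. Of 33602 identifiers, 32835 matched the reference. Alternatives changed the offset (0.1 or 4), the filter, the variance trend, the replicate block and the libraries fitted. With no counts, the depth and its precision are unknown.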

Additional observations from a re-analysis of the deposited data

Results flagged for a closer look

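The evening-minus-morning difference itself differed between collections for several members. From ex1 to ex2 it moved by 4.34 for CBF1, 2.74 for CBF2, 2.39 for CBF3 and 3.16 for CBF4, and in all 4 genes the evening level gained on the morning one. From ex2 to ex3 it moved the other way, by -1.16 for CBF2, -1.93 for CBF3 and -0.52 for ICE1. From ex3 to ex4 it moved by 1.17 for CBF2, which rests on single libraries.

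The difference between accessions also changed with the collection, by an F test. The limma adjusted p was 0.000884 for CBF1, 0.0129 for CBF3, 0.0183 for CBF4, 0.000589 for ZAT12 and 6.18e-06 for ICE1.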

How the results depend on the processing

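No called value of a member changed direction under any alternative. Among the counts of members called, accession by time of day went from 0 to 1 with Moj ex3 morning replicate 1 kept, with an offset of 0.1 and with only the collections compared, and to 0 to 3 with single libraries left out (3 without Col-0 ex1 morning replicate 3). The change of the evening-minus-morning difference from ex3 to ex4 went from 1 to 0 with an offset of 0.1, and 0 to 1 with single libraries left out. The evening change from ex3 to ex4 went from 1 to 0 with Moj ex3 morning replicate 1 kept, with no filter and with an offset of 4, to 2 with only the collections compared, and to 0 to 2 with single libraries left out. With the replicate block it was 2. The other counts stayed within 1.5 times, and with single libraries left out they ran from 2 to 4 for Vel against Col-0, 4 to 7 for accession by collection, 4 to 6, 3 to 5, 3 to 3 and 3 to 4 for evening against morning in ex1 to ex4, and 5 to 5 for Bon and for Moj against Col-0. Further ranges were 4 to 5 and 3 to 3 for the change of that difference from ex1 to ex2 and ex2 to ex3, 6 to 6 and 5 to 6 for morning and evening from ex1 to ex2, 3 to 4 and 2 to 3 from ex2 to ex3, 4 to 5 for morning from ex3 to ex4, and 81 to 91 (87 in all libraries) for contrasts within accessions.

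Taken over all groups, the replicate numbers showed no clear pairing of the libraries. Deviations from group means correlated at a median of 0.000999 over 1002 pairs with the same number and -0.000682 over 2005 pairs with other numbers. Of 79 libraries, 35 correlated best, on average, with their own number, and some would do so without any pairing. A pairing within a collection was not tested. Where a library left out makes a group 1 library, that library is assumed to vary like the other groups. Values near 0 depend most on the offset, which bears on CBF1, CBF4, DDF1 and DDF2.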
